A study of Oryza sativa Japonica Group with 6 samples.

Results

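The 65 loci described here are the MYB genes that were expressed in rice seedling shoots after 24 h at 11, 13 or 25 °C. They are the loci whose description in the authors' deposited table contains the word myb and whose RPKM (reads scaled to gene length and library size) reached 1 in no fewer than 2 of the 6 libraries. In all, 96 loci with a mixed-case identifier carry such a description, 31 of them did not reach that level, and the 65 stand among 19429 loci that did. The seedlings were 2-week-old plants of Lijiangxintuanheigu, a japonica rice cultivar, and RNA came from their stems and leaves. The groups were shoots held at 11 °C, shoots held at 13 °C and shoots held at 25 °C, with 2 libraries each, which the series design calls biological replicates. Genotype, tissue, age and duration were the same in all groups, and collection times are not given, so temperature and time of day cannot be told apart.

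MYB proteins bind DNA through repeats of a helix-turn-helix domain named after the animal oncogene c-Myb. In plants the R2R3 class, with a pair of repeats, is the largest and controls phenylpropanoid and anthocyanin synthesis, epidermal cell fate, secondary walls and responses to abscisic acid, jasmonate, drought and cold; some of its members activate genes and others repress them. The GARP class carries a single related domain and includes regulators of phloem identity and phosphate starvation, while proteins with 3 repeats act in the cell cycle and single myb histones bind telomeric DNA.

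Sorted by the name of the best protein match, 39 of the 65 loci are of the R2R3 type, 15 of the GARP type, 4 of the 3-repeat type and 3 of the telomere type. Another 3 match Myb-like proteins of slime mould or human (Myb-like protein L, Myb-like protein O and a cyclin-D-binding Myb-like factor). The remaining one, LOC_Os08g01740, matches Target of Myb protein 1, which in mammals is an endosomal sorting adaptor, so the word in its description does not make it a transcription factor. The classes follow the match and not a count of repeats in the rice protein. Description words also miss some rice MYB genes: of 19 loci with published MYB or GARP symbols that were looked up, 8 are among the 65, while OsMYBS1, OsMYBS2, OsMYBS3, OsPHR1, OsPHR2, OsMYB55, OsMYB91 and OsLUX are expressed but described without the word.

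All 7 leaf markers looked up (Rubisco activase, Rubisco small subunits, chlorophyll a-b binding proteins and GAPB) were expressed in every library at 19.4 RPKM or more. Their summed level was 7578 and 5966 RPKM at 11 °C, 22530 and 23410 RPKM at 13 °C, and 34150 and 49060 at 25 °C. That order comes from Rubisco activase; the other 6 summed to 6563 and 5316 RPKM at 11 °C, 18390 and 18510 RPKM at 13 °C, and 7126 and 12430 at 25 °C. Of 4 root markers, 2 (OsLsi2 and OsNRT2.1) are listed only under upper-case identifiers, which hold no replicate 2 values in the table, so their zeros in replicate 2 are not measurements. Some upper-case identifiers have replicate 1 values, so whether the zeros in replicate 1 are measurements cannot be told. The other 2 summed to 0.875 and 1.00 RPKM at 11 °C, 11.9 and 11.0 RPKM at 13 °C, and 18.1 and 13.0 at 25 °C, at 13 and 25 °C nearly all of it from the silicon channel gene OsLsi1. Both marker lists thus moved with temperature, and their part in the results was not tested. Of 2 panicle markers, OsMADS6 is likewise listed only in upper case, and OsMADS1 was at 1.82 to 3.51 RPKM. Library totals recovered from the RPKM steps were 15964798 to 18754726 reads. Replicate 2 was above replicate 1 at 54, 53 and 30 of the 65 loci at 11, 13 and 25 °C, and at 76.0%, 79.8% and 65.3% of all loci tested.

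Most of these genes are weakly expressed. Their mean over the 6 libraries had a median of 4.68 RPKM, against 8.46 for all loci tested, 34 of the 65 were under 5 RPKM and 2 were over 50. LOC_Os05g02420 (chromosome 5, 801087 to 803464) and OsMYB48 (LOC_Os01g74410, chromosome 1, 43096392 to 43097974), both matching the rice R2R3 protein MYBAS2, had the highest means at 239.9 and 114 RPKM. Next came the GARP gene LOC_Os08g25799 at 36.8, the MYB44-type gene LOC_Os09g01960 at 36.5, the Myb-like protein O gene LOC_Os03g46950 at 29.3 and the single myb histone gene LOC_Os01g40670 at 28.7 RPKM. The 65 loci rested on 58 to 60785 reads each over the 6 libraries, with a median of 915. At the lower edge, 11 loci reached 1 RPKM in exactly 2 libraries; just outside it, LOC_Os03g26130 and LOC_Os04g32000, both matching Myb306, reached it in 1 library each, at 1.02 and 1.48 RPKM. Through the libraries of a single temperature alone 10 loci passed, 4 at 11 °C, 5 at 13 °C and 1 at 25 °C. These had to differ between temperatures, and their calls are given as description. Others were under 1 RPKM in both 25 °C libraries and passed only through libraries at 11 and 13 °C together. They are LOC_Os01g16810, LOC_Os01g50110, LOC_Os02g41510 (OsMYB30), LOC_Os03g13310, LOC_Os05g35500 and LOC_Os10g33810. A higher level in some low-temperature libraries was built in for them as well. In the same way, LOC_Os04g51800, LOC_Os07g43580 and LOC_Os11g07890 were under 1 RPKM in both 11 °C libraries and passed only through 13 and 25 °C. LOC_Os01g03720, LOC_Os08g43550 and LOC_Os11g45740 (JAmyb) were under it in both 13 °C libraries and passed only through 11 and 25 °C. A lower level there than in some other libraries was built in.

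**Figure D1:**
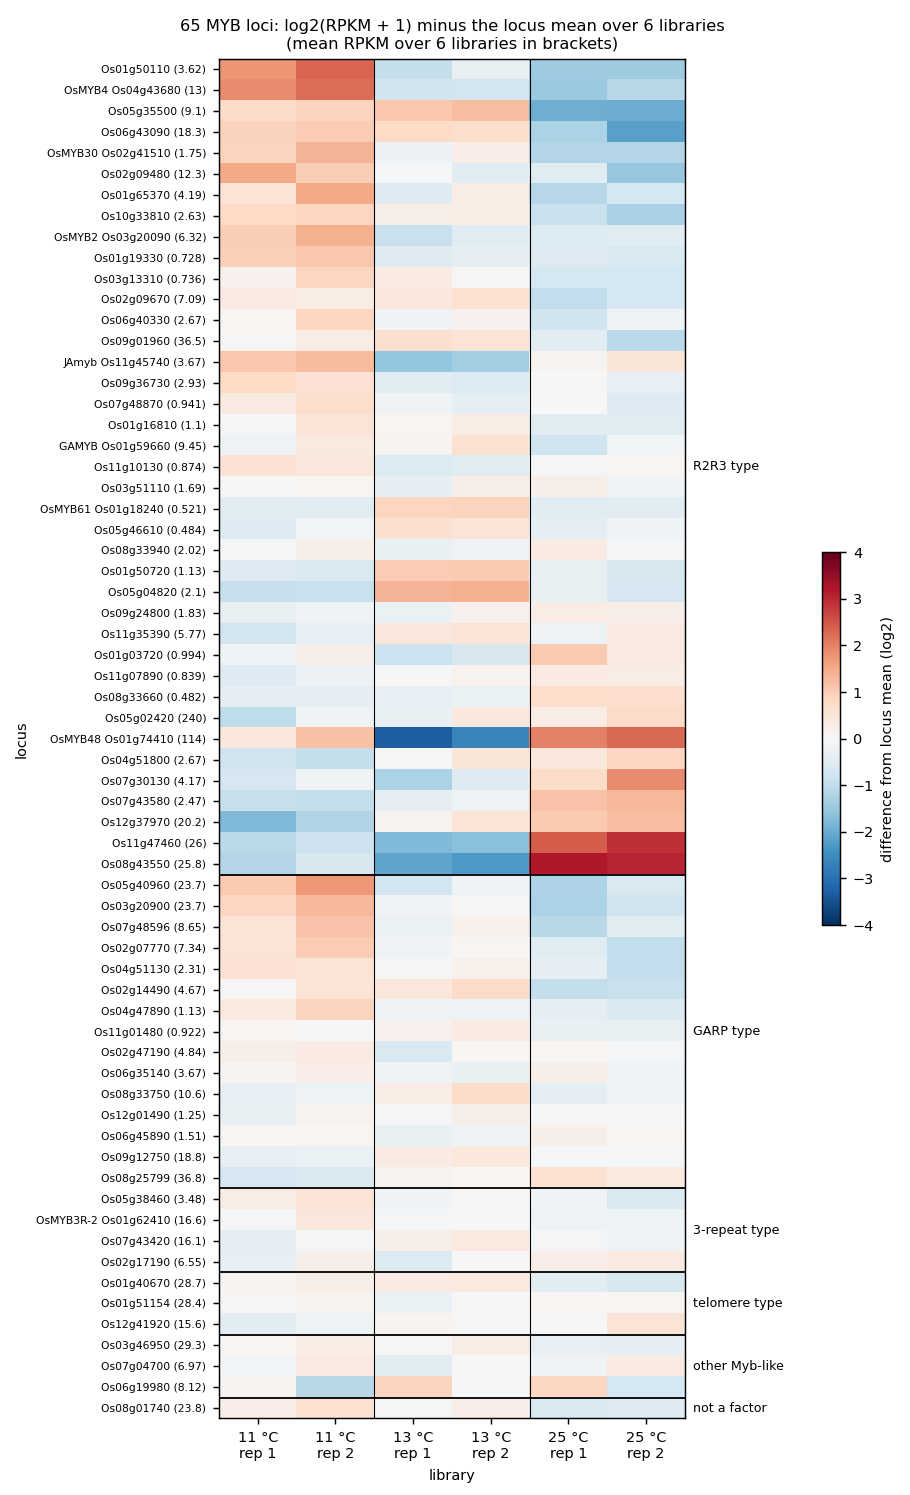
Heat map of the 65 MYB loci (rows, by class and then by their difference at 11 °C) in the 6 libraries (columns). Colour is log2(RPKM + 1) minus the locus mean over the 6 libraries, and the mean RPKM stands in brackets. OsMYB4 and its neighbours at the top are high in both 11 °C libraries, OsMYB48 is low in both 13 °C libraries, and LOC_Os08g43550 and LOC_Os11g47460 are high in both 25 °C libraries.

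At 11 °C against 25 °C, 29 of the 65 loci rose, 11 fell and 25 did not pass (limma on log2(RPKM + 1) over all loci, Benjamini-Hochberg adjusted p below 0.05, n = 2 per temperature). Over all loci tested 28.7% rose and 21.4% fell, 50.1% in all, against 61.5% of the MYB loci. The rises include the 4 loci that passed the filter only through 11 °C. They also include all those named above that passed only through 11 and 13 °C together. Among the falls are LOC_Os04g51800, LOC_Os07g43580, LOC_Os08g33660 and LOC_Os11g07890, which were under 1 RPKM in both 11 °C libraries. For all of these loci a difference was built in by the filter. The median difference was 0.35 for the MYB loci and 0.13 for all loci on the log2 scale. Under quantile scaling, which moved the median of all loci to -0.03 and that of the MYB loci to 0.11, the split was 24 rises and 15 falls. With that scaling 28.2% of all loci rose and 29.3% fell. Leaving out replicate 2 at 11 °C gave fewer rises, and leaving out replicate 1 there gave fewer falls. The shares of all loci that rose or fell were lower in these fits too.

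At 13 °C against 25 °C, 18 loci rose, 10 fell and 37 did not pass, where 26.4% of all loci rose and 17% fell; in all, 43.1% of the MYB loci and 43.4% of all loci were called. The median difference was 0.37, against 0.12 for all loci, but without replicate 2 at 25 °C it was 0.19, against 0.20, and without replicate 1 at 25 °C it was 0.24, against 0.06. Quantile scaling gave 17 rises and 16 falls, with medians of 0.19 for the MYB loci and -0.03 for all loci. With that scaling 25.2% of all loci rose and 25.3% fell. Among the 18 rises are the 5 loci that passed the filter only through 13 °C. They also include LOC_Os02g41510, LOC_Os03g13310, LOC_Os05g35500 and LOC_Os10g33810, which passed only through 11 and 13 °C together. Among the 10 falls are LOC_Os01g03720, LOC_Os08g33660, LOC_Os08g43550 and LOC_Os11g45740, which were under 1 RPKM in both 13 °C libraries. For all of these loci a difference was built in by the filter. At 11 °C against 13 °C, 15 loci rose, 11 fell and 39 did not pass, against 17.3% and 18.2% of all loci (35.5% in all). The 15 rises include the 4 loci that passed only through 11 °C, and the 11 falls include most of those that passed only through 13 °C. Some difference was built in as well for the rises of LOC_Os08g43550 and LOC_Os11g45740 and the falls of LOC_Os04g51800 and LOC_Os07g43580. The falls of this last comparison numbered 4 to 6 without 1 library at 11 °C or 13 °C (at 11 °C, 4 without replicate 1 and 5 without replicate 2; at 13 °C, 6 without replicate 1 and 5 without replicate 2). The 3 comparisons share libraries, so their counts are not independent of each other. Across the 3, 49 loci were called at least once and 16 never. The matching share over all loci was not counted, so this number is not read as a trait of the MYB loci.

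**Figure D2:**
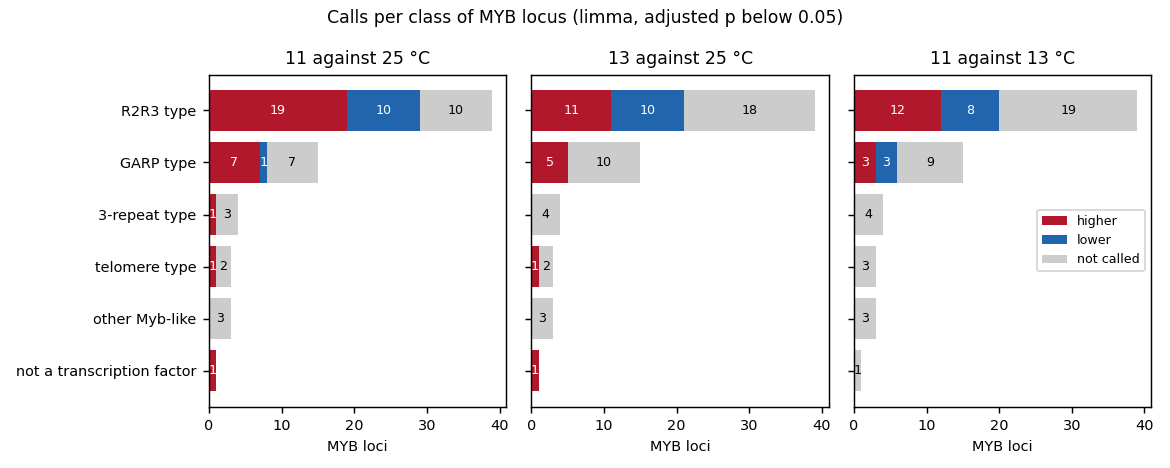
Number of MYB loci called higher, called lower or not called (horizontal axis) for each class (rows) in the 3 comparisons, from limma at an adjusted p below 0.05. R2R3 loci show 19 rises and 10 falls at 11 against 25 °C and 11 and 10 at 13 against 25 °C, while GARP loci show 7 rises and 1 fall at 11 °C and 5 rises at 13 °C.

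Loci whose levels at 1 temperature did not overlap those at the others were counted, beside the same share over all loci. Loci that passed the filter only through 1 temperature lie above the others there by construction. They number 4 at 11 °C, 5 at 13 °C and 1 at 25 °C. Both 11 °C libraries lay above the other 4 at 22 loci (33.8%), where 21.7% of all loci did so, and below them at 10 (15.4%, all loci 19.2%). Both 13 °C libraries lay above the others at 13 loci (20.0%, all loci 19.1%) and below them at 10 (15.4%, all loci 13.4%). Both 25 °C libraries lay above the others at 13 loci (20.0%, all loci 20.3%) and below them at 24 (36.9%, all loci 29.2%). Those 24 include all the loci named above that passed only through 11 and 13 °C together, and LOC_Os04g47890 and LOC_Os11g01480. For these the filter favoured that pattern. It likewise favoured LOC_Os04g51800, LOC_Os07g43580 and LOC_Os11g07890 among those below at 11 °C. At 13 °C it favoured LOC_Os01g03720, LOC_Os08g43550 and LOC_Os11g45740 among those below.

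The Myb4-type genes were high at 11 °C. OsMYB4 (LOC_Os04g43680, chromosome 4, 25843038 to 25844912), an R2R3 factor that raises chilling tolerance in plants made to overexpress it, had 29.1 and 36.8 RPKM at 11 °C, 3.66 and 3.78 RPKM at 13 °C, and 1.92 and 2.77 at 25 °C. Both 11 °C libraries lay far above the other 4, and the 13 °C libraries only slightly above those at 25 °C. It was 14.1-fold higher at 11 °C than at 25 °C (log2 difference 3.35 ± 0.26 SE, limma adjusted p = 4.8e-05) and 8.86-fold higher than at 13 °C (2.84 ± 0.26, adjusted p = 0.000236), while 13 against 25 °C did not pass (0.51 ± 0.26, adjusted p = 0.145). As the tissue is bulk shoot, more RNA per cell and more cells that express a gene cannot be told apart here or below.

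OsMYB30 (LOC_Os02g41510, chromosome 2, 24878775 to 24879934), reported to lower cold tolerance and to repress beta-amylase genes in rice, was listed at 0 in both 25 °C libraries. It had 3.16 and 4.76 RPKM at 11 °C (56 and 93 reads) and 0.905 and 1.69 RPKM at 13 °C (16 and 33 reads). Its levels were thus graded over the 3 temperatures with no overlap. It rose at 11 °C by 2.29 ± 0.25 (adjusted p = 0.000223) and at 13 °C by 1.18 ± 0.25 (adjusted p = 0.0064) against 25 °C. Its difference between 11 and 13 °C (1.11, adjusted p = 0.011) did not pass without replicate 2 at 11 °C (adjusted p = 0.0585) or replicate 1 at 13 °C (adjusted p = 0.0669). The log2 size of such a change depends on the added constant: with 0.1 in place of 1, the rise at 11 °C was 5.31.

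The last Myb4-type gene, LOC_Os10g33810, was graded as well, with 4.45 and 4.74 RPKM at 11 °C, 2.69 and 2.90 RPKM at 13 °C, and 0.691 and 0.281 at 25 °C. It rose 9.46-fold at 11 °C (1.93 ± 0.23, adjusted p = 0.00034) and 5.76-fold at 13 °C (1.37 ± 0.23, adjusted p = 0.00215) against 25 °C. All 3 Myb4-type loci thus rose at 11 °C, where 28.7% of all loci rose, and 2 of the 3 at 13 °C, where 26.4% did. Those 2, OsMYB30 and LOC_Os10g33810, were under 1 RPKM at 25 °C and passed the filter only through the low temperatures. A higher level there was built in, and no more is read from the count.

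Genes matching repressors of the R2R3 class moved in both directions. LOC_Os01g50110 (chromosome 1, 28796516 to 28797732), matching Arabidopsis MYB5, had 7.997 and 12.2 RPKM at 11 °C, 0.367 and 1.14 at 13 °C, and was listed at 0 in both 25 °C libraries. In reads this is 153 and 257 at 11 °C against 7 and 24 at 13 °C and none at 25 °C. It rose by 3.45 ± 0.29 at 11 °C against 25 °C (adjusted p = 6.95e-05), which became 6.64 with 0.1 as the added constant, and was 13.4-fold higher at 11 °C than at 13 °C (2.67 ± 0.29, adjusted p = 0.000459). At 13 °C against 25 °C it did not pass (0.77 ± 0.29, adjusted p = 0.0619), although it did with 0.1 as the added constant (2.93, adjusted p = 0.00339).

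LOC_Os01g65370 matches Arabidopsis MYB4, which represses a phenylpropanoid enzyme gene. It had 5.17 and 11.2 RPKM at 11 °C, 1.98 and 4.20 RPKM at 13 °C, and 0.943 and 1.64 at 25 °C, in each pair with replicate 2 above replicate 1. It rose 6.35-fold at 11 °C against 25 °C (adjusted p = 0.00493). Neither 13 against 25 °C (0.80 ± 0.40, adjusted p = 0.149) nor 11 against 13 °C (1.14 ± 0.40, adjusted p = 0.0594) passed.

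The 2 loci matching Arabidopsis MYB6 went opposite ways at 11 °C. LOC_Os02g09670 had 8.46 and 8.27 RPKM at 11 °C, 8.98 and 10.4 RPKM at 13 °C, and 2.81 and 3.63 at 25 °C, and rose at both (2.598-fold at 11 °C, adjusted p = 0.00488, and 3.01-fold at 13 °C, adjusted p = 0.0028). LOC_Os04g51800 had 0.890 and 0.727 RPKM at 11 °C, 2.23 and 3.64 RPKM at 13 °C, and 3.51 and 5.04 at 25 °C, and fell 5.29-fold at 11 °C against 25 °C (adjusted p = 0.00226). It passed the filter only through 13 and 25 °C, so that a lower level at 11 °C was built in. Its fall at 11 against 13 °C (adjusted p = 0.0155) did not pass without replicate 1 (adjusted p = 0.0533) or 2 (adjusted p = 0.0860) at 11 °C or replicate 2 at 13 °C (adjusted p = 0.101).

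The Zm38-type gene LOC_Os08g43550 (chromosome 8, 27547971 to 27549173) had the largest log2 falls of the 65 loci in both comparisons with 25 °C. Zm38 is a maize R2R3 protein related to the anthocyanin regulator C1. The rice gene had 2.76 and 4.40 RPKM at 11 °C, 0.942 and 0.710 RPKM at 13 °C, and 77.3 and 68.8 at 25 °C. Only the 25 °C libraries held it at a high level, and the lowest were those at 13 °C. It was 20.4-fold lower at 11 °C (-4.04 ± 0.27, adjusted p = 2.96e-05) and 88.5-fold lower at 13 °C (-5.34 ± 0.27, adjusted p = 1.72e-05) than at 25 °C. Between the low temperatures it was 4.34-fold higher at 11 °C (1.31 ± 0.27, adjusted p = 0.00708), a call that did not pass without replicate 2 at 11 °C (adjusted p = 0.0577).

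LOC_Os05g35500 (chromosome 5, 21099294 to 21100588) matches the snapdragon protein Myb308, which represses phenolic acid metabolism when overexpressed in tobacco, and showed nearly the reverse. It had 11.0 and 12.2 RPKM at 11 °C, 14.0 and 15.8 RPKM at 13 °C, and 0.839 and 0.821 at 25 °C. It rose 13.9-fold at 11 °C (2.78 ± 0.23, adjusted p = 6.77e-05) and 17.9-fold at 13 °C (3.12 ± 0.23, adjusted p = 5.21e-05), and the difference between the low temperatures did not pass (-0.34 ± 0.23, adjusted p = 0.296). The other Myb308-type locus, LOC_Os11g07890, had 0.260 and 0.539 RPKM at 11 °C, 0.776 and 1.00 RPKM at 13 °C, and 1.25 and 1.21 at 25 °C. It was called lower at 11 °C (-0.68, adjusted p = 0.0181), though not in the fits without replicate 1 at 11 °C or replicate 1 at 25 °C. This locus passed the filter only through 13 and 25 °C, so that a lower level at 11 °C was built in.

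**Figure D3:**
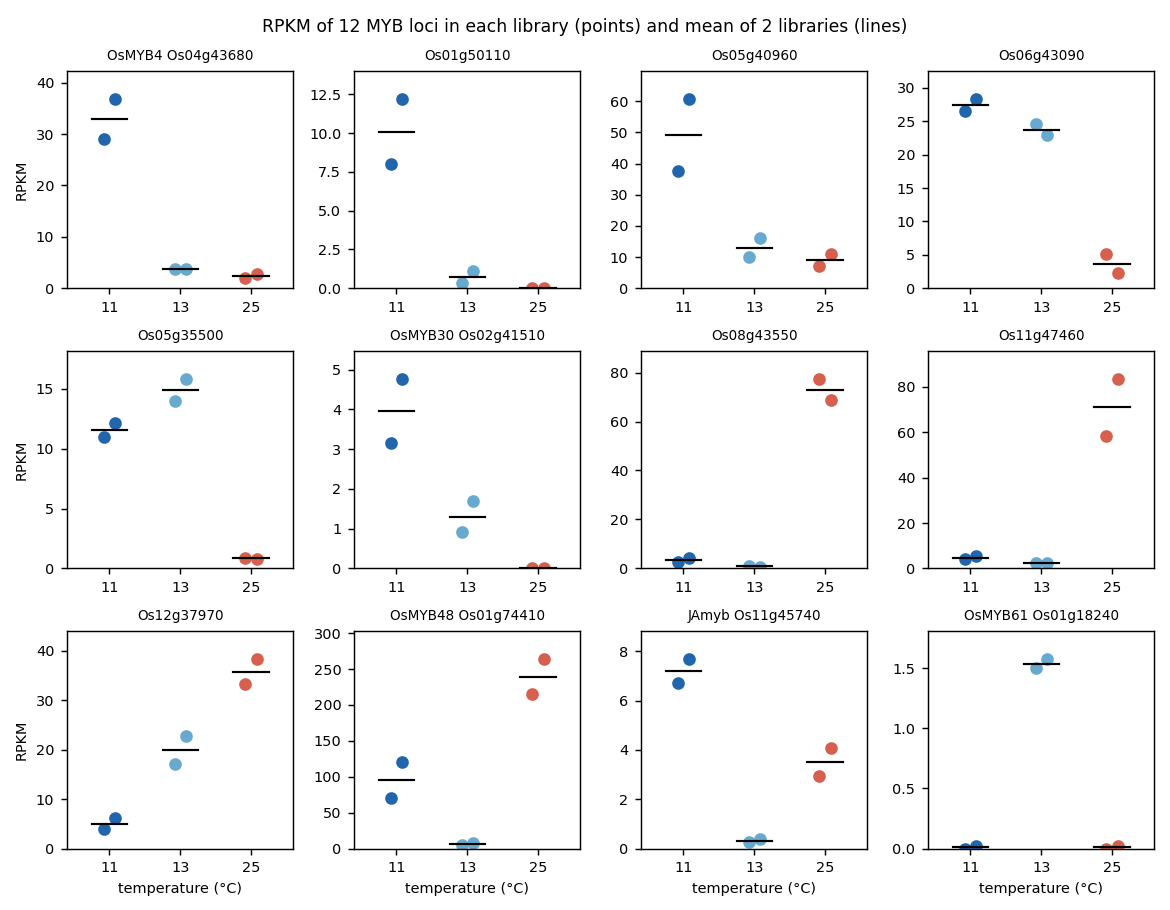
RPKM of 12 MYB loci (1 panel each, vertical axes differ and start at 0) at 11, 13 and 25 °C; points are the 2 libraries and lines their mean. The panels show loci that are high at 11 °C (OsMYB4, 29.1 and 36.8 RPKM), high at both low temperatures (LOC_Os06g43090), low at both (LOC_Os08g43550, 77.3 and 68.8 RPKM at 25 °C), low at 13 °C (OsMYB48, JAmyb) or high at 13 °C (OsMYB61).

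The 4 MYBAS-type loci all fell at 11 °C against 25 °C, where 21.4% of all loci fell, and some of these calls depended on single libraries. This small R2R3 group is named for its alternatively spliced transcripts, and OsMYB48 raises drought and salt tolerance when overexpressed in rice. OsMYB48 had 70.7 and 120.1 RPKM at 11 °C, 4.43 and 7.48 RPKM at 13 °C, and 215.1 and 263.6 at 25 °C. The 3 groups did not overlap, and the intermediate temperature had by far the lowest level. It was 40.2-fold lower at 13 °C than at 25 °C (-5.14 ± 0.32, adjusted p = 2.88e-05), and 16.01-fold higher at 11 °C than at 13 °C (3.78 ± 0.32, adjusted p = 0.000199). At 11 °C it was 2.51-fold lower than at 25 °C (-1.36 ± 0.32, adjusted p = 0.00915), which did not pass without replicate 1 at 11 °C (adjusted p = 0.0585) or replicate 2 at 25 °C (adjusted p = 0.0525).

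The MYBAS1 locus, LOC_Os11g47460 (chromosome 11, 28703899 to 28705306), had 4.30 and 5.27 RPKM at 11 °C, 2.31 and 2.50 RPKM at 13 °C, and 58.5 and 83.4 at 25 °C. It fell 14.8-fold at 11 °C (-3.62 ± 0.26, adjusted p = 3.66e-05) and 29.5-fold at 13 °C (-4.38 ± 0.26, adjusted p = 2.4e-05), and the low temperatures did not differ past the threshold (0.76 ± 0.26, adjusted p = 0.0519). LOC_Os12g37970, another MYBAS2 match, was graded instead. Its levels were 3.91 and 6.22 RPKM at 11 °C, 17.1 and 22.7 RPKM at 13 °C, and 33.3 and 38.3 at 25 °C. It was 7.07-fold lower at 11 °C than at 25 °C (-2.62 ± 0.27, adjusted p = 0.00017) and 3.92-fold lower than at 13 °C (-1.80 ± 0.27, adjusted p = 0.00193), while its fall at 13 °C (-0.83, adjusted p = 0.0393) did not pass when any 1 library at 13 °C (adjusted p = 0.214 without replicate 1 and 0.0603 without replicate 2) or 25 °C (0.0874 and 0.151) was left out.

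LOC_Os05g02420, the most abundant of the 65, had 109 and 197 RPKM at 11 °C, 180.7 and 299.8 RPKM at 13 °C, and 274 and 379 at 25 °C, and the libraries of neighbouring temperatures overlapped. It was 2.14-fold lower at 11 °C than at 25 °C (-1.14 ± 0.37, adjusted p = 0.0328). That call did not pass without replicate 1 at 11 °C (adjusted p = 0.202) or replicate 2 at 25 °C (adjusted p = 0.141). The other 2 comparisons did not pass (adjusted p = 0.342 at 13 against 25 °C and 0.195 at 11 against 13 °C).

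The 5 loci matching Arabidopsis MYB108, a wound-, pathogen- and jasmonate-related factor, had more transcript at 11 °C than at 13 °C in summed level, with 21.4 and 28.3 RPKM at 11 °C, 3.24 and 4.37 RPKM at 13 °C, and 9.72 and 8.999 at 25 °C. Of the 5, 4 rose at 11 against 25 °C and none fell, and 2 fell at 13 against 25 °C and none rose. Over all loci 28.7% rose at 11 °C and 17% fell at 13 °C. Both loci that fell at 13 °C, JAmyb and LOC_Os01g03720, were under 1 RPKM there and passed the filter only through 11 and 25 °C. A lower level at 13 °C than in some other libraries was thus built in. Without replicate 2 at 11 °C the rises were 2, and 2 of the 4 (LOC_Os01g19330 and LOC_Os07g48870) passed the expression filter only through 11 °C, so a difference was built in. LOC_Os07g48870 had 1.36 and 2.04 RPKM at 11 °C, 0.685 and 0.401 RPKM at 13 °C, and 0.856 and 0.298 at 25 °C. JAmyb (LOC_Os11g45740, chromosome 11, 27670321 to 27673334), induced by jasmonate, wounding and rice blast, had 6.71 and 7.68 RPKM at 11 °C, 0.252 and 0.381 RPKM at 13 °C, and 2.95 and 4.08 at 25 °C. Its 3 groups did not overlap, with 13 °C lowest at 6 and 10 reads.

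JAmyb was 22.7-fold higher at 11 °C than at 13 °C (2.64 ± 0.24, adjusted p = 0.000236) and 11.1-fold lower at 13 °C than at 25 °C (-1.77 ± 0.24, adjusted p = 0.000736). At 11 °C it was 2.05-fold higher than at 25 °C (0.87 ± 0.24, adjusted p = 0.0173), a call not made without replicate 2 at 11 °C (adjusted p = 0.0870) or replicate 1 at 25 °C (adjusted p = 0.0910). It was 1 of 2 loci called in opposite directions at the 2 low temperatures, and the share of all loci so called was not counted. The other, the MYB44-type locus LOC_Os11g10130, had 1.68 and 1.45 RPKM at 11 °C, 0.222 and 0.281 RPKM at 13 °C, and 0.708 and 0.903 at 25 °C. It passed the filter only through 11 °C, so that a higher level there was built in, and its level was 6.21-fold higher at 11 than at 13 °C (1.03 ± 0.18, adjusted p = 0.00329), while the rise at 11 °C (adjusted p = 0.0433) gave 0.0573 to 0.1503 when any 1 library was left out and the fall at 13 °C (adjusted p = 0.0424) gave 0.0520 to 0.162 in 5 of the 6 such fits.

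OsMYB2 (LOC_Os03g20090, chromosome 3, 11326079 to 11328322), which raises cold, salt and dehydration tolerance of rice when overexpressed, was high only at 11 °C. It had 10.8 and 15.2 RPKM at 11 °C, 2.25 and 3.28 RPKM at 13 °C, and 3.10 and 3.32 at 25 °C, so that the 13 and 25 °C libraries overlapped. It rose 4.05-fold at 11 against 25 °C (1.72 ± 0.27, adjusted p = 0.00138) and 4.70-fold against 13 °C (1.89 ± 0.27, adjusted p = 0.00163), and 13 against 25 °C did not pass (-0.17 ± 0.27, adjusted p = 0.646). LOC_Os01g19330 shared that pattern at a low level, with 1.93 and 2.19 RPKM at 11 °C (36 and 45 reads), 0.0537 and 0.146 at 13 °C (1 and 3 reads), and 0.0570 and 0 at 25 °C (1 read and none); it rose by 1.57 ± 0.16 against 25 °C (adjusted p = 0.000173) and, as a locus that passed only through 11 °C, had to differ. LOC_Os01g03720 fell at 13 °C (-1.45 ± 0.27, adjusted p = 0.00365) and had 0.592 and 1.14 RPKM at 11 °C, 0 and 0.168 RPKM at 13 °C, and 2.76 and 1.30 at 25 °C.

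Of the 7 loci matching Arabidopsis MYB44, a factor of abscisic acid signalling and stomatal closure, 6 rose and none fell at 11 °C. At 13 °C, 3 rose and 1 fell. Over all loci 28.7% rose and 21.4% fell at 11 °C, and 26.4% rose and 17% fell at 13 °C. Of the 6, LOC_Os11g10130 passed the filter only through 11 °C. LOC_Os01g16810 and LOC_Os03g13310 passed only through 11 and 13 °C together, so that a higher level in the cold was built in. The 6 rises became 3 when replicate 2 at 11 °C or replicate 2 at 25 °C was left out. Of the 6 fits that left out a library, only that without replicate 1 at 11 °C kept the fall. Their summed level was 95.9 and 96.8 RPKM at 11 °C, 89.6 and 83.7 RPKM at 13 °C, and 40.0 and 23.0 at 25 °C. LOC_Os06g43090 (chromosome 6, 25899442 to 25900817) had 26.6 and 28.3 RPKM at 11 °C, 24.6 and 22.9 RPKM at 13 °C, and 5.14 and 2.26 at 25 °C. It rose 7.42-fold at 11 °C (2.67 ± 0.31, adjusted p = 0.000301) and 6.42-fold at 13 °C (2.47 ± 0.31, adjusted p = 0.000541), with no called difference between the low temperatures (0.20 ± 0.31, adjusted p = 0.653).

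LOC_Os02g09480, in contrast, had 29.1 and 19.8 RPKM at 11 °C, 8.88 and 6.94 RPKM at 13 °C, and 6.57 and 2.65 at 25 °C. It rose 5.31-fold at 11 against 25 °C (2.25 ± 0.38, adjusted p = 0.0017), while 13 against 25 °C did not pass (0.75 ± 0.38, adjusted p = 0.144). Its rise over 13 °C (3.10-fold, adjusted p = 0.0168) did not pass without replicate 1 at 11 °C (adjusted p = 0.0916) or replicate 2 at 13 °C (adjusted p = 0.0792). LOC_Os09g01960, the most abundant of the 7, had 35.0 and 41.6 RPKM at 11 °C, 52.7 and 49.2 RPKM at 13 °C, and 25.0 and 15.3 at 25 °C, so it was highest at 13 °C. It rose 2.53-fold at 13 °C (1.34 ± 0.27, adjusted p = 0.00461), and its 1.90-fold rise at 11 °C (adjusted p = 0.0201) did not pass without replicate 2 at 11 °C (adjusted p = 0.108) or at 25 °C (adjusted p = 0.0912).

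A set of low-level R2R3 genes was highest at 13 °C. OsMYB61 (LOC_Os01g18240, chromosome 1, 10217247 to 10219696), an activator of secondary wall cellulose synthase genes in rice, had 0 and 0.0239 RPKM at 11 °C, 1.504 and 1.576 RPKM at 13 °C, and 0 and 0.0244 at 25 °C. In reads these are none and 1 at 11 °C, 57 and 66 at 13 °C, and none and 1 at 25 °C. It was higher at 13 °C than at 25 °C by 1.33 ± 0.15 (adjusted p = 0.000335) and lower at 11 °C than at 13 °C by the same amount (-1.33 ± 0.15, adjusted p = 0.000557); with 0.1 as the added constant these were 3.88 and -3.88.

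The other MYB86-type locus, LOC_Os05g04820 (chromosome 5, 2311396 to 2315444), had 0.252 and 0.3002 RPKM at 11 °C, 5.20 and 5.38 RPKM at 13 °C, and 0.940 and 0.497 at 25 °C. It was 7.36-fold higher at 13 than at 25 °C (1.88 ± 0.21, adjusted p = 0.00032) and 19.2-fold lower at 11 than at 13 °C (-2.30 ± 0.21, adjusted p = 0.000247). The Hv33-type locus LOC_Os01g50720 had 0.302 and 0.205 RPKM at 11 °C, 2.73 and 2.84 RPKM at 13 °C, and 0.523 and 0.175 at 25 °C, and was 7.98-fold higher at 13 than at 25 °C (adjusted p = 0.000634). Hv33 is a barley R2R3 protein.

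The remaining Hv33-type locus, LOC_Os05g46610, had 0 and 0.319 RPKM at 11 °C, 1.22 and 1.03 RPKM at 13 °C, and 0.0833 and 0.254 at 25 °C (0.86 ± 0.19 at 13 against 25 °C, adjusted p = 0.00779). Its lower level at 11 than at 13 °C (-0.88, adjusted p = 0.00933) did not pass without replicate 1 at 11 °C (adjusted p = 0.0566). All 4 of these loci passed the expression filter only through the 13 °C libraries, so that a difference was built in, and no more is read from their number.

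Among the 5 loci matching the snapdragon protein Myb306, none rose, and 2 fell at both low temperatures against 25 °C. Over all loci 28.7% rose and 21.4% fell at 11 °C, and 26.4% rose and 17% fell at 13 °C. LOC_Os07g43580 had 0.4999 and 0.4537 RPKM at 11 °C, 1.14 and 1.45 RPKM at 13 °C, and 5.15 and 6.12 at 25 °C. It passed the filter only through 13 and 25 °C, so that a lower level at 11 °C was built in. It fell 11.8-fold at 11 °C (-2.16 ± 0.21, adjusted p = 0.000135) and 4.35-fold at 13 °C (-1.53 ± 0.21, adjusted p = 0.00082), and its fall at 11 against 13 °C (adjusted p = 0.0499) gave 0.111 to 0.235 when any 1 library at 11 °C or 13 °C was left out. LOC_Os07g30130 had 1.42 and 2.51 RPKM at 11 °C, 0.625 and 1.72 RPKM at 13 °C, and 5.47 and 13.3 at 25 °C, where its replicates differed most. It fell 8.02-fold at 13 °C (-2.20 ± 0.43, adjusted p = 0.00421), and its 4.78-fold fall at 11 °C (adjusted p = 0.0111) did not pass without replicate 1 at 11 °C (adjusted p = 0.0581) or replicate 2 at 25 °C (adjusted p = 0.0597). LOC_Os11g35390 had 2.84 and 4.08 RPKM at 11 °C, 7.76 and 8.13 RPKM at 13 °C, and 4.62 and 7.17 at 25 °C, and its fall at 11 against 13 °C (adjusted p = 0.0253) gave 0.0503 to 0.143 when any 1 library at 11 °C or 13 °C was left out.

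Another pair of R2R3 loci was called at low level. The Hv1-type locus LOC_Os09g36730 had 5.38 and 4.48 RPKM at 11 °C, 1.67 and 1.51 RPKM at 13 °C, and 2.61 and 1.95 at 25 °C. It was 3.10-fold higher at 11 than at 13 °C (1.19 ± 0.23, adjusted p = 0.00605), and its rise against 25 °C (adjusted p = 0.0166) did not pass without replicate 1 at 11 °C (adjusted p = 0.0867) or replicate 2 at 25 °C (adjusted p = 0.0887). LOC_Os08g33660, matching Arabidopsis MYB34, had 0.0716 and 0.0650 RPKM at 11 °C, 0.108 and 0.163 RPKM at 13 °C, and 1.26 and 1.23 at 25 °C, the last from 33 and 37 reads, and passed the filter only through 25 °C.

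GAMYB (LOC_Os01g59660), the gibberellin-regulated activator of alpha-amylase genes in the aleurone, was not called in any comparison. It had 7.73 and 12.1 RPKM at 11 °C, 9.69 and 14.1 RPKM at 13 °C, and 4.79 and 8.28 at 25 °C, and the libraries overlapped (0.54 ± 0.34 at 11 against 25 °C, adjusted p = 0.215; 0.79 ± 0.34 at 13 against 25 °C, adjusted p = 0.0928). The second GAMYB match, LOC_Os06g40330, had 2.61 and 5.31 RPKM at 11 °C, 2.15 and 2.86 RPKM at 13 °C, and 0.988 and 2.08 at 25 °C. Its call at 11 against 25 °C (adjusted p = 0.0483) was lost in 4 of the 6 fits that leave out a library.

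Of 15 GARP-type genes, 7 rose, 1 fell and 7 did not pass at 11 °C, where 28.7% of all loci rose and 21.4% fell. At 13 °C 5 rose and 10 did not pass, or 33.3% beside 26.4% of all loci. The 5 became 1 when any 1 library at 13 °C was left out, 2 for any 1 at 25 °C and 3 for any 1 at 11 °C. Arabidopsis APL, the match of 9 of them, specifies phloem identity. Of these 9, 5 rose and 1 fell at 11 °C, whichever library was left out. The 3 that rose at 13 °C (33.3%, all loci 26.4%) became 0 when any 1 library at 13 °C was left out, 1 for any 1 at 25 °C and 2 for any 1 at 11 °C. They were LOC_Os03g20900, LOC_Os04g51130 and LOC_Os08g33750. LOC_Os05g40960 (chromosome 5, 24015243 to 24017576) had 37.6 and 60.7 RPKM at 11 °C, 9.91 and 15.98 RPKM at 13 °C, and 7.02 and 11.1 at 25 °C. Both 11 °C libraries lay above all others, and those at 13 and 25 °C overlapped. It was 5.42-fold higher at 11 than at 25 °C (2.31 ± 0.34, adjusted p = 0.000986) and 3.80-fold higher than at 13 °C (1.84 ± 0.34, adjusted p = 0.00488).

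LOC_Os03g20900 was graded, with 36.5 and 49.2 RPKM at 11 °C, 17.7 and 20.1 RPKM at 13 °C, and 7.66 and 10.9 at 25 °C. It rose 4.61-fold at 11 °C against 25 °C (2.09 ± 0.26, adjusted p = 0.000387). Its rise at 13 °C (0.97, adjusted p = 0.0175) gave 0.0517 to 0.0944 when either 13 °C library or replicate 1 at 25 °C was left out, and its rise at 11 against 13 °C (1.13, adjusted p = 0.0117) did not pass when replicate 2 at 11 °C (adjusted p = 0.0876) or replicate 1 at 13 °C (0.0672) was left out. LOC_Os07g48596 (3.63-fold, adjusted p = 0.00473) and LOC_Os02g07770 (3.33-fold, adjusted p = 0.00357) rose at 11 °C as well, to 14.5 ± 4.77 and 12.01 ± 3.137 RPKM (SD, n = 2), against 3.99 ± 1.52 and 3.602 ± 1.126 at 25 °C.

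The most abundant GARP gene went the other way. LOC_Os08g25799 (chromosome 8, 15695534 to 15703960) had 21.7 and 23.2 RPKM at 11 °C, 38.2 and 36.9 RPKM at 13 °C, and 54.3 and 46.6 at 25 °C, graded with no overlap. It fell 2.24-fold at 11 against 25 °C (-1.13 ± 0.20, adjusted p = 0.00248), did not pass at 13 °C (-0.41 ± 0.20, adjusted p = 0.14), and its fall at 11 against 13 °C (adjusted p = 0.0274) gave 0.0988 to 0.136 when any 1 library at 11 °C or 13 °C was left out. LOC_Os09g12750 and LOC_Os08g33750 were highest at 13 °C, at 24.0 ± 1.09 and 15.1 ± 3.47 RPKM (SD, n = 2). At 11 °C they had 14.7 ± 0.45 and 8.24 ± 0.60 RPKM, and at 25 °C 17.6 ± 0.33 and 8.46 ± 1.00 RPKM. Their calls at 11 against 13 °C (adjusted p = 0.035 and 0.0426), and that of LOC_Os08g33750 at 13 against 25 °C (adjusted p = 0.0416), depended on single libraries. Those of LOC_Os08g33750 did not pass in any fit that left out a library (adjusted p of 0.0545 to 0.27), and that of LOC_Os09g12750 did not when any library at 11 or 13 °C was left out (0.126 to 0.177).

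Of the 6 GARP loci matching At1g14600, 2 rose at each low temperature and none fell (33.3%, where 28.7% and 26.4% of all loci rose). LOC_Os04g47890 and LOC_Os11g01480, which rose at 11 °C and at 13 °C in turn, passed the filter only through that temperature, and the call of LOC_Os11g01480 was lost in every fit that left out a library. LOC_Os02g14490 had 4.26 and 6.56 RPKM at 11 °C, 6.02 and 7.77 RPKM at 13 °C, and 1.65 and 1.79 at 25 °C. It rose 4.01-fold at 13 °C (1.53 ± 0.27, adjusted p = 0.00279), and its 3.15-fold rise at 11 °C (adjusted p = 0.00708) did not pass without replicate 2 at 11 °C (adjusted p = 0.0599). LOC_Os11g01480 and LOC_Os12g01490 lie at matching ends of chromosomes 11 and 12, so reads may be shared between them, and neither is interpreted.

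**Figure D4:**
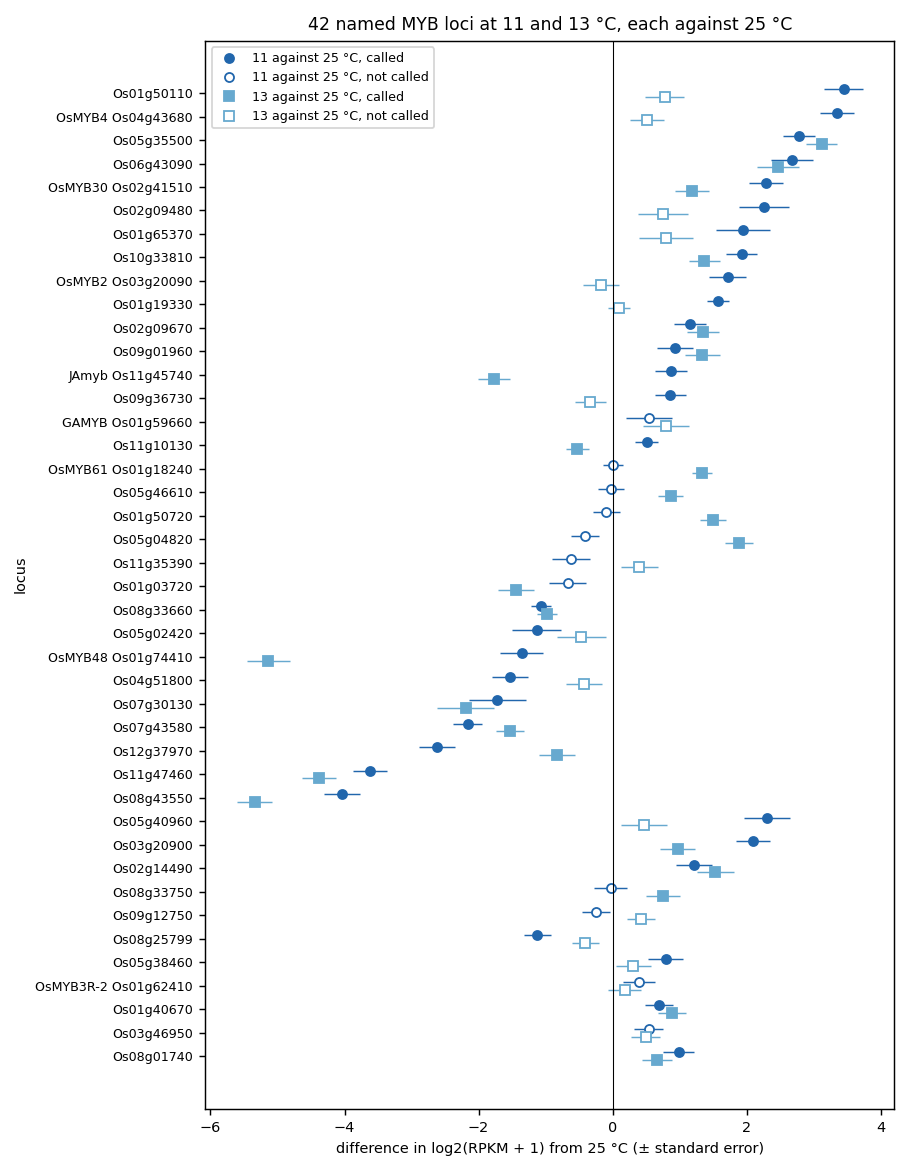
Difference in log2(RPKM + 1) from 25 °C (horizontal axis, ± SE from limma) for the 42 loci named by the selection rule, at 11 °C (circles) and 13 °C (squares); filled symbols passed an adjusted p below 0.05. Both differences use the same 25 °C libraries. JAmyb has its circle right of 0 and its square left of it, and OsMYB61, LOC_Os05g04820 and LOC_Os01g50720 have only their squares right of 0.

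The remaining classes moved little. Of the 4 loci of the 3-repeat type, 1 was called at 11 °C and none at 13 °C, where 50.1% and 43.4% of all loci were called. OsMYB3R-2 (LOC_Os01g62410, chromosome 1, 36122778 to 36128487), which supports the G2 to M transition and cold tolerance when overexpressed in rice, had 15.9 and 22.8 RPKM at 11 °C, 15.9 and 16.7 RPKM at 13 °C, and 14.2 and 14.5 at 25 °C. No comparison of it passed (0.39 ± 0.24 at 11 against 25 °C, adjusted p = 0.209; 0.18 ± 0.24 at 13 against 25 °C, adjusted p = 0.592). LOC_Os05g38460 had 4.36 and 5.35 RPKM at 11 °C, 2.88 and 3.505 RPKM at 13 °C, and 2.90 and 1.91 at 25 °C, and its call at 11 against 25 °C (adjusted p = 0.0344) was lost in 5 of the 6 fits that leave out a library (adjusted p of 0.0531 to 0.175).

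Of the 3 single myb histone genes, whose maize relatives bind telomere repeats, LOC_Os01g40670 had 29.8 and 32.9 RPKM at 11 °C, 34.8 and 36.6 RPKM at 13 °C, and 20.6 and 17.4 at 25 °C. It was 1.65-fold higher at 11 °C (adjusted p = 0.0243) and 1.88-fold higher at 13 °C (adjusted p = 0.0103); these calls gave 0.0709 and 0.133 without replicate 1 or 2 at 11 °C, 0.0928 without replicate 2 at 25 °C, and 0.0509 and 0.0691 without replicate 1 or 2 at 13 °C. LOC_Os01g51154, with 23.2 to 30.5 RPKM, and LOC_Os12g41920, with 11.2 to 22.2 RPKM, were never called. LOC_Os03g46950, the Myb-like protein O match, had 30.5 and 36.0 RPKM at 11 °C, 29.2 and 35.3 RPKM at 13 °C, and 22.6 and 22.4 at 25 °C, and did not pass (adjusted p = 0.0688 and 0.101). The cyclin-D-binding Myb-like locus LOC_Os06g19980 followed the replicate number: 7.79 RPKM in replicate 1 and 2.78 in replicate 2 at 11 °C, 13.9 and 6.95 RPKM at 13 °C, and 13.3 and 3.98 at 25 °C.

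The Target of Myb gene LOC_Os08g01740 had 27.6 and 35.0 RPKM at 11 °C, 22.1 and 27.5 RPKM at 13 °C, and 14.7 and 15.8 at 25 °C. It rose 2.06-fold at 11 °C (adjusted p = 0.00838), not called without replicate 2 at 11 °C (adjusted p = 0.0693). Its call at 13 °C (adjusted p = 0.0474) was lost in every fit that left out a library (adjusted p of 0.0645 to 0.257).

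Genes of pathways that MYB factors are known to control were counted beside them, from lists of description words. Enzymes of phenylpropanoid and flavonoid synthesis, targets of many R2R3 factors, were counted first: of 70 measured, 13 rose (18.6%, all loci 28.7%), 31 fell (44.3%, all loci 21.4%) and 26 did not pass at 11 against 25 °C, with a median of -0.32 (all loci 0.13). At 13 against 25 °C, 20 rose (28.6%, all loci 26.4%), 27 fell (38.6%, all loci 17%) and 23 did not pass, with a median of -0.27 (all loci 0.12). The largest fall at 11 °C was that of LOC_Os02g08100, described as probable 4-coumarate--CoA ligase 3, with 2.58 and 1.95 RPKM at 11 °C, 3.83 and 5.32 RPKM at 13 °C, and 64.9 and 56.5 at 25 °C. The largest rise was that of LOC_Os08g37456, described as flavonol synthase/flavanone 3-hydroxylase, with 26.3 and 32.2 RPKM at 11 °C, 5.03 and 8.19 RPKM at 13 °C, and 0.0402 and 0.0700 at 25 °C. LOC_Os03g08624, described as a putative dihydroflavonol-4-reductase, had 8.32 and 9.93 RPKM at 11 °C, 0.195 and 0.442 RPKM at 13 °C, and 52.1 and 79.5 at 25 °C, lowest at 13 °C like OsMYB48.

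Of the list of anthocyanin complex partners only 2 loci were measured. One of them, LOC_Os06g10350, is described as anthocyanin regulatory C1 protein, which in maize is itself an R2R3 MYB factor, although the word is missing from its description. It had 0.384 and 0.392 RPKM at 11 °C, 2.12 and 1.75 RPKM at 13 °C, and 0.717 and 0.356 at 25 °C. It reached 1 RPKM only at 13 °C, so that a difference was built in. It was higher at 13 than at 25 °C (0.94 ± 0.20, adjusted p = 0.00572) and lower at 11 than at 13 °C (-1.08 ± 0.20, adjusted p = 0.00434), and 11 against 25 °C did not pass (-0.14 ± 0.20, adjusted p = 0.59).

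Genes described as SPX domain proteins, inorganic phosphate transporters or purple acid phosphatases were counted in the same way. PHR factors of the GARP class activate some genes of these families. Of 31 measured, 15 rose (48.4%, all loci 28.7%), 9 fell (29.0%, all loci 21.4%) and 7 did not pass at 11 against 25 °C (median 0.40, all loci 0.13). The largest falls there were those of the SPX domain membrane protein genes LOC_Os02g45520 (-2.81) and LOC_Os06g03860 (-2.28). At 13 against 25 °C, 22 rose (71.0%, all loci 26.4%), 4 fell (12.9%, all loci 17%) and 5 did not pass (median 1.30, all loci 0.12). At 11 against 13 °C, 2 rose (6.45%, all loci 17.3%), 19 fell (61.3%, all loci 18.2%) and 10 did not pass (median -1.08, all loci -0.02). The SPX domain protein 2 gene LOC_Os02g10780, whose product belongs to a family that restrains PHR factors when phosphate is ample, had 34.2 and 35.9 RPKM at 11 °C, 195.9 and 203.9 RPKM at 13 °C, and 6.82 and 3.49 at 25 °C. The purple acid phosphatase 3 gene LOC_Os03g13540 had 13.1 and 7.05 RPKM at 11 °C, 174.8 and 188.6 RPKM at 13 °C, and 8.97 and 6.03 at 25 °C.

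Of 18 alpha-amylase and gibberellin genes, 4 rose (22.2%, all loci 28.7%), 7 fell (38.9%, all loci 21.4%) and 7 did not pass at 11 against 25 °C, with a median of -0.26. At 13 against 25 °C, 7 rose (38.9%, all loci 26.4%), 6 fell (33.3%, all loci 17%) and 5 did not pass, with a median of 0.15. The largest fall at 11 °C was that of LOC_Os05g48700, described as a gibberellin 2-beta-dioxygenase, an enzyme that inactivates gibberellins, with 0.619 and 0.843 RPKM at 11 °C, 0.0345 and 0.0312 RPKM at 13 °C, and 9.17 and 5.97 at 25 °C (-2.29 ± 0.24, adjusted p = 0.000179). The largest rise was that of the gibberellin receptor gene LOC_Os05g33730, which had 62.8 and 77.0 RPKM at 11 °C, 40.5 and 46.4 RPKM at 13 °C, and 17.0 and 18.2 at 25 °C, and rose by 1.93 ± 0.21 at 11 °C (adjusted p = 0.000232).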

How the data were processed

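RNA-seq of 6 libraries, 2 each at 11, 13 and 25 °C, was analysed from the RPKM values in the authors' deposited table. Reads were aligned with TopHat2 2.0.12, per the submitters' processing notes. Which genome build, gene models and counter were used, and whether strand was used, is not given in the sources used here, so coordinates are as the table prints them, and reads of paralogs or overlapping genes may be shared.

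Identifiers are written LOC_Os for 32150 loci and LOC_OS for 23650. The LOC_OS loci have no description, are at 0 in every replicate 2 library, and 2021 of them have a replicate 1 value; they were left out. Loci reaching an RPKM of 1 in 2 or more libraries (19429) were fitted together as log2(RPKM + 1) with limma 3.58.1 in R 4.3.3: all 6 libraries, a mean-variance trend, 3 contrasts, no further scaling. Such differences understate changes of low genes. Fold changes are ratios of mean RPKM. The fit was tested on simulated data.

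Library totals came from the RPKM steps of low genes, taking the whole span as gene length; with them the values of 19428 of 19429 loci were whole reads within 0.02, and reads given are the smallest that match all 6 values. The members and lists were chosen with earlier results of these data known. Named loci are up to 10 of the largest called rises and falls per comparison, loci called in opposite directions, the 6 highest means, a list of published symbols, and per class the highest and most changed; other loci named were chosen after their values were seen. One locus entered as a root marker was dropped because the table gives it no description. No sequence file was at hand, and likeness between loci was not computed, since the libraries fall into 3 groups.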

Additional observations from a re-analysis of the deposited data

How the results depend on the processing

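The 6 counts of called loci were recomputed under 14 alternatives. With RPKM of at least 5 required in 2 libraries, which removes members from the test, 17 loci were higher at 11 against 25 °C, 10 at 13 against 25 °C, and 9 higher and 7 lower at 11 against 13 °C. Of all loci so tested, 29.8% were higher at 11 against 25 °C and 26.9% at 13 against 25 °C. At 11 against 13 °C, 18.6% of them were higher and 18.2% lower. With no filter on low values 7 were lower at 11 against 13 °C, where 10.5% of all loci were. Quantile scaling gave 16 lower at 13 against 25 °C, where 25.3% of all loci were. Leaving out 1 library gave 19 to 26 higher and 7 to 11 lower at 11 against 25 °C, 12 to 17 and 8 to 10 at 13 against 25 °C, and 10 to 16 and 4 to 10 at 11 against 13 °C. The shares of all loci called higher and lower also became smaller whenever a library of either compared temperature was left out. The fewer calls are thus not read as a trait of the MYB loci. The cause was not tested beyond the smaller number of loci or libraries. The replicate numbers are shared only as numbers in the labels, yet deviations from the group means correlated over 19429 loci between temperatures (r = 0.71 for 11 and 13 °C, 0.61 for 11 and 25 °C, 0.67 for 13 and 25 °C), as a hint from the data and not the design. With a replicate block, 31 loci (47.7%, where 36.7% of all loci were) were higher at 13 against 25 °C, the other counts staying within 1.5 times. Of 1728 values of named loci under the alternatives, 1570 kept their side of the threshold, 113 lost it, 45 gained it and none changed sign with a call. Calls kept under each alternative that still tested the locus numbered 18 rises and 7 falls at 11 against 25 °C, 11 and 8 at 13 against 25 °C, and 9 and 4 at 11 against 13 °C. At these depths 1 read on a gene of 1 kb is 0.0533 to 0.0626 RPKM, which limits loci under 1 RPKM.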
